A study of Mus musculus with 24 samples.

Results

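The 5 genes Dpp4, Pi16, Cd34, Dcn and Pdgfra mark the stromal progenitor cells of fat, and their expression was followed in eWAT, epididymal white adipose tissue, a visceral fat pad of male mice. Members were taken by symbol from the annotation of the array, which assigns a probe set of its own to each of the 5 genes, among 22180 genes with such a probe set. All 5 passed the level filter and were among the 15526 genes tested. A further probe set carries the symbols Cd34 and Gm16897 together and was left out. It read a mean log2 signal of 6.61, against 11.24 for the probe set of Cd34 alone.

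Each of the 24 arrays held RNA of eWAT from 1 mouse, with 3 arrays in each of 8 groups of genotype and circadian time (CT). MUT mice had the genotype Syt10-Cre/Cre x Bmal1-flox/-, in which the circadian clock of the SCN is lost. The SCN, or suprachiasmatic nucleus, is the light-entrained pacemaker of the brain, and the deletion rests on Cre made where Syt10 is expressed. CON mice had the genotype Syt10-Cre/Cre x Bmal1-+/-. Both groups therefore carried 2 copies of the Syt10 Cre driver and 1 Bmal1 allele that is already lost, and CON is not a wild-type group. Mice lived in a light-dark cycle for 2 weeks, were moved to constant darkness and were killed on its second day at CT1, CT7, CT13 or CT19. Replicates are separate mice.

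Adipose progenitors are fibroblast-like cells around vessels and in the connective tissue sheets of the fat pad, from which new adipocytes form. PDGFRA, a receptor for platelet-derived growth factors, and CD34, a sialomucin on the cell surface, are used to sort them. DPP4, a membrane peptidase, and PI16, a secreted or membrane-anchored peptidase inhibitor, mark a subset in the interstitial sheets that lies upstream of committed preadipocytes. Decorin, the product of Dcn, is a small proteoglycan that binds collagen fibrils and is made by most fibroblasts. None of these genes is restricted to progenitors: CD34 is also found on capillary endothelium and DPP4 on mesothelial and T cells. In whole tissue, fewer cells of a type and less RNA per cell cannot be told apart.

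The members moved together over the day in CON, so the DNA just before their transcription starts is shown for the 3 members with a usable window in the promoter table. The stretches come from RefSeq (GRCm38.p6), which matched 4 of the 5 members, and hold only bases upstream of every annotated transcript of the gene. For Pdgfra the window lies inside a longer transcript and is not shown. Capitals mark the single match found, AGAACA, a glucocorticoid receptor half-site on the strand shown.
Dpp4, chr2:62412316-62412481, minus strand: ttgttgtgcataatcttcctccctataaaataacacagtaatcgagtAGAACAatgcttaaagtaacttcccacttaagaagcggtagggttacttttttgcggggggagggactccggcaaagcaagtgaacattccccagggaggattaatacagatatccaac
Pi16, chr17:29318632-29318795, plus strand: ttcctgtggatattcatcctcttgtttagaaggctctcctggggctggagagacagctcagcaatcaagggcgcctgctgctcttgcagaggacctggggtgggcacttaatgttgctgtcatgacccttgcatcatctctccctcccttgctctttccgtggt
Cd34, chr1:194938571-194938820, plus strand: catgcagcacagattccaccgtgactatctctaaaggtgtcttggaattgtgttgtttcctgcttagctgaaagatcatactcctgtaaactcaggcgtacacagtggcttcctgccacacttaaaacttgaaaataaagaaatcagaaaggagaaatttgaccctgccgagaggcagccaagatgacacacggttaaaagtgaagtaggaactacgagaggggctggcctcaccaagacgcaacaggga
The letters searched on both strands were CACGTG (E-box), TTATGTAA and TTACGTAA (D-box), AGGTCA (nuclear receptor half-site), AGAACA and TGANTCA (AP-1 site), and no motif overlaps another in these stretches. The match lies 119 bases before the 3′ end of the Dpp4 stretch, and 11.2% of the 32851 promoter windows hold AGAACA in a stretch of that length. For CACGTG the shares were 3.31%, 3.26% and 6.02% at the lengths of the Dpp4, Pi16 and Cd34 stretches, and for AGGTCA they were 9.41%, 9.31% and 14%. The absence of the other letters says only that they are not in these windows.

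Array medians lay between 7.802 and 7.936 on the log2 scale. Titles and treatment text give the tissue as eWAT and the source field gives it as mediobasal hypothalamus. The 9 adipocyte markers had a median log2 signal of 13.09, and the 9 tested markers of neurons, glia and oligodendrocyte precursors, which in brain also express Pdgfra, had 8.07. Arntl, the floxed gene, ranged over group means from 8.07 to 9.54 in CON and from 8.19 to 9.52 in MUT. Its CON means were 8.95, 8.07, 8.36 and 9.54 at CT1, CT7, CT13 and CT19. Its MUT means were 8.49, 8.19, 9.52 and 9.15, highest at CT13 where CON was highest at CT19. Groups of the same CT need therefore not share a phase of the fat clock, and this was not tested. Fat tissue does not report on the deletion of Arntl in the SCN. Syt10 ranged from 7.51 to 7.62 in CON and from 7.33 to 7.49 in MUT.

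Mean log2 signals, which are not corrected for probe affinity and so do not rank genes against each other, were 9.15 for Dpp4, 8.62 for Pi16, 11.24 for Cd34, 13.06 for Dcn and 9.56 for Pdgfra. All 5 had their lowest group mean in the same group, CON at CT7. Dpp4 and Pi16 had the widest ranges of the 5, from 8.06 to 10.16 and from 7.98 to 9.65 over the 24 arrays.

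**Figure D1:**
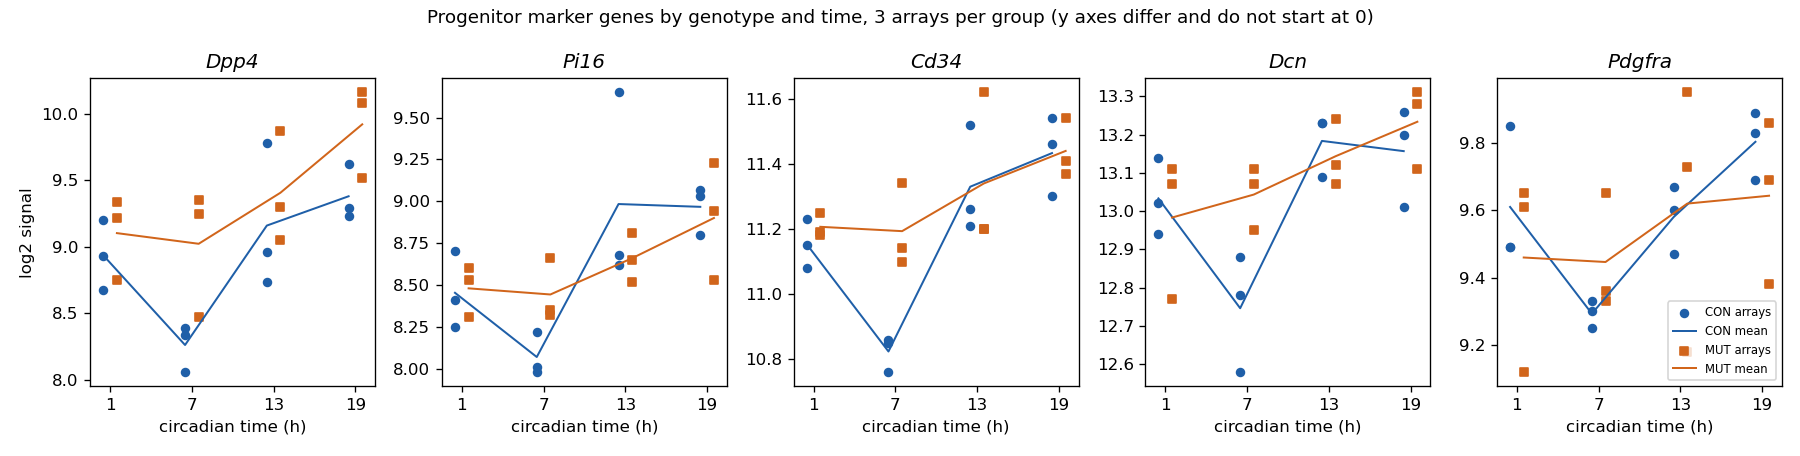
Log2 signal (y axis, a separate scale for each gene) against circadian time in hours (x axis) for the 5 genes, with points for single arrays and lines through the means of 3 arrays, CON in blue and MUT in orange. The CON arrays at CT7 lie below the other CON arrays of each gene, and the MUT lines are flatter between CT1 and CT7.

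Dpp4 encodes dipeptidyl peptidase 4, which trims peptide hormones and chemokines. In CON its log2 signal was 8.93, 9.20 and 8.68 at CT1, 8.06, 8.39 and 8.34 at CT7, 8.74, 8.96 and 9.78 at CT13, and 9.62, 9.29 and 9.23 at CT19. In MUT it was 9.22, 9.34 and 8.75 at CT1, 8.47, 9.25 and 9.35 at CT7, 9.05, 9.87 and 9.30 at CT13, and 10.16, 10.08 and 9.52 at CT19. The 3 CON arrays at CT7 were lower than all other 21 arrays, and 2 MUT arrays at CT19 were the only ones above 10. In CON the fitted 24-h rhythm had a log2 peak-to-trough of 1.14 ± 0.26 (SE; 2.21-fold) with its peak at CT18.2 ± 0.86 h. In MUT the fitted size was 0.95 ± 0.26 with a peak at CT17.7, and it missed the threshold (adjusted p = 0.15).

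Pi16 encodes peptidase inhibitor 16, of the CAP superfamily of secreted proteins. In CON its log2 signal was 8.41, 8.70 and 8.25 at CT1, 7.98, 8.22 and 8.01 at CT7, 8.68, 8.62 and 9.65 at CT13, and 9.03, 8.80 and 9.07 at CT19. In MUT it was 8.60, 8.53 and 8.31 at CT1, 8.35, 8.32 and 8.66 at CT7, 8.52, 8.81 and 8.65 at CT13, and 9.23, 8.94 and 8.53 at CT19. The CON arrays at CT7 again lay below every other array, 1 CON array at CT13 was the highest of all, and the MUT time points overlapped each other. The fitted size was 1.05 ± 0.20 (2.07-fold, peak CT17) in CON and 0.49 ± 0.20 in MUT (peak CT17.5, adjusted p = 0.374).

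Cd34 was the member with the smallest p for a rhythm in CON. Its log2 signal in CON was 11.15, 11.23 and 11.08 at CT1, 10.85, 10.86 and 10.76 at CT7, 11.26, 11.21 and 11.52 at CT13, and 11.46, 11.30 and 11.54 at CT19. In MUT it was 11.19, 11.25 and 11.18 at CT1, 11.14, 11.10 and 11.34 at CT7, 11.20, 11.62 and 11.20 at CT13, and 11.41, 11.54 and 11.37 at CT19. Arrays of CON at CT7 were lowest here too, and at CT1, CT13 and CT19 the genotypes overlapped. The fitted size was 0.63 ± 0.10 (1.55-fold, peak CT17.9 ± 0.6 h) in CON and 0.28 ± 0.10 in MUT (peak CT17.1, adjusted p = 0.299).

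Dcn is the decorin gene. In CON it read 13.02, 13.14 and 12.94 at CT1, 12.58, 12.88 and 12.78 at CT7, 13.09, 13.23 and 13.23 at CT13, and 13.26, 13.01 and 13.20 at CT19. In MUT it read 13.07, 13.11 and 12.77 at CT1, 12.95, 13.11 and 13.07 at CT7, 13.12, 13.07 and 13.24 at CT13, and 13.31, 13.28 and 13.11 at CT19. CON at CT7 was lowest as a group, but its range overlapped that of MUT at CT1. The fitted size was 0.44 ± 0.10 (1.36-fold, peak CT17.7) in CON and 0.25 ± 0.10 in MUT (peak CT16.3, adjusted p = 0.338).

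Pdgfra encodes the receptor used most widely to define these cells. In CON it read 9.49, 9.85 and 9.49 at CT1, 9.33, 9.30 and 9.25 at CT7, 9.47, 9.67 and 9.60 at CT13, and 9.89, 9.69 and 9.83 at CT19. In MUT it read 9.61, 9.65 and 9.12 at CT1, 9.33, 9.65 and 9.36 at CT7, 9.73, 9.18 and 9.95 at CT13, and 9.69, 9.86 and 9.38 at CT19. The CON arrays at CT7 lay below the other CON arrays, while MUT arrays spread from 9.12 to 9.95 with no time point apart from another. The fitted size was 0.51 ± 0.16 (1.42-fold, peak CT19.2) in CON, which missed the threshold (adjusted p = 0.0705), and 0.26 ± 0.16 in MUT (adjusted p = 0.628).

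Over the 8 groups, the order of means therefore ended with CON at CT7 for each gene. For Dpp4, Pi16 and Cd34 this group did not overlap the next one up, which lay 0.67, 0.38 and 0.33 above it. For Dcn and Pdgfra it did overlap, with gaps of 0.24 and 0.15. All other neighbours in the order overlapped for all 5 genes. The highest group was MUT at CT19 for Dpp4 (9.92 ± 0.35, SD, n = 3), Cd34 (11.44 ± 0.09) and Dcn (13.23 ± 0.11), CON at CT13 for Pi16 (8.99 ± 0.58) and CON at CT19 for Pdgfra (9.80 ± 0.10).

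In CON, 4 of the 5 members passed the test for a 24-h rhythm (threshold 0.05 after Benjamini-Hochberg adjustment), against 17.1% of all tested genes. Adjusted p was 0.000854 for Cd34, 0.00352 for Pi16, 0.00891 for Dcn and 0.0112 for Dpp4 (limma's moderated F test). The members were listed with these rhythms already known, so the count is a description. Their median size was 0.63, against 0.18 over all genes. Between CT7 and CT19 all 5 rose in CON, against 10.7% of genes called in either direction and 7.47% called higher. Dpp4 rose by 1.12 ± 0.26 (adjusted p = 0.00675), Pi16 by 0.90 ± 0.20 (adjusted p = 0.00505), Cd34 by 0.61 ± 0.10 (adjusted p = 0.000482), Dcn by 0.41 ± 0.10 (adjusted p = 0.00709) and Pdgfra by 0.51 ± 0.16 (adjusted p = 0.0428). The call of Pdgfra ended when any of 7 arrays was left out, namely each CON array at CT7 or CT19 and MUT CT19 replicate 1 (adjusted p from 0.0144 to 0.125 over the 24 omissions). It also ended with a replicate block (adjusted p = 0.0516), with quantile normalization (adjusted p = 0.0529), with no level filter (adjusted p = 0.0584) and after a lowess correction of each array for its trend over signal level (0.46, adjusted p = 0.0639). The CON rhythm of Pdgfra, in turn, passed without MUT CT1 replicate 3, MUT CT13 replicate 2 or MUT CT13 replicate 3 (adjusted p = 0.0474, 0.0268 and 0.0459). It also passed with array weights (adjusted p = 0.0133), where 27% of all genes were called. The comparison of CT19 with CT7 was added with the levels known and uses the arrays of the rhythm test again. The 3 CON arrays at CT7 lay below all 3 at CT1 for all 5 genes, as for 16.1% of tested genes. All 3 arrays at CT13 exceeded them for all 5 genes, as for 12.4%, and so did all 3 at CT19, as for 17.7%.

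The narrowest spread of signals over all probe sets was found in 3 CON arrays, replicates 2 and 3 of CT7 and replicate 1 of CT13. Without these 3 arrays the CON rhythm of Dpp4 was 1.39 and missed the threshold (adjusted p = 0.0511), and 3 of the 5 members were called, while the share of all genes called was 6.51%. The rise from CT7 to CT19 was then called for 2 members, Cd34 and Dcn, and for 3.07% of all genes, with 1 CON array left at CT7.

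In MUT, 0 of the 5 members had a 24-h rhythm that passed with limma, against 0.348% of tested genes. At an unadjusted p under 0.05 there were 3 members, Dpp4, Cd34 and Dcn, and 2266 genes. With array weights Dpp4 passed (0.91, adjusted p = 0.0408), and 3.57% of all genes were then called. The median fitted size was 0.28 for the members and 0.13 for all genes. The rise from CT7 to CT19 was 0.90 ± 0.26 for Dpp4 (adjusted p = 0.0943), 0.46 ± 0.20 for Pi16, 0.25 ± 0.10 for Cd34, 0.19 ± 0.10 for Dcn and 0.20 ± 0.16 for Pdgfra, none of which passed, against 0.831% of genes called. For Dpp4 it passed without CON CT13 replicate 3 (adjusted p = 0.0447), without MUT CT19 replicate 3 (adjusted p = 0.0455) and with array weights (adjusted p = 0.0147). Array weights raised the share of all genes called to 7.14%. The MUT arrays at CT19 lay above all MUT arrays at CT7 for Dpp4 and Cd34, as for 12.9% of genes.

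The fitted sizes in MUT were 83.1% of those in CON for Dpp4, 57.1% for Dcn, 50.9% for Pdgfra, 47% for Pi16 and 44.4% for Cd34. The test of the difference in rhythm itself passed for 0 of 5 members with limma, against 1.44% of genes (at an unadjusted p under 0.05, 0 members and 2430 genes). The vector difference was 0.56 ± 0.28 for Pi16 (adjusted p = 0.488), 0.36 ± 0.14 for Cd34 (adjusted p = 0.329), 0.36 ± 0.23 for Pdgfra, 0.24 ± 0.36 for Dpp4 and 0.22 ± 0.13 for Dcn. Neither a flat rhythm in MUT nor equal rhythms in both genotypes was shown by these tests. The shift of the fitted peak, MUT minus CON, was -0.51 h for Dpp4, 0.57 h for Pi16, -0.82 h for Cd34, -1.38 h for Dcn and -2.8 h for Pdgfra. The peak of a rhythm that did not pass has a wide error, from 1.03 h (Dpp4) to 2.35 h (Pdgfra) in MUT.

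**Figure D2:**
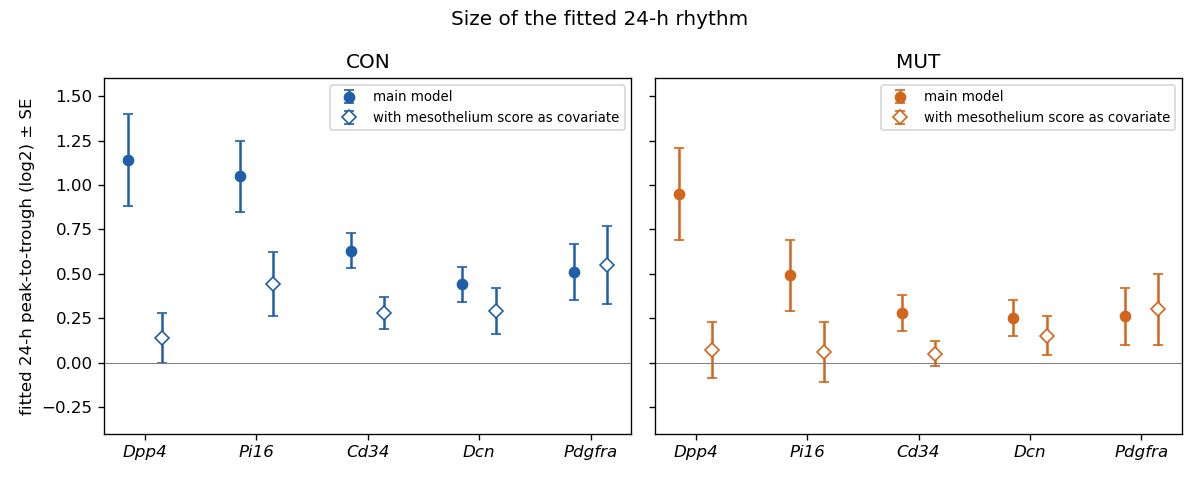
Fitted 24-h peak-to-trough in log2 units with its SE (y axis) for the 5 genes (x axis), CON on the left and MUT on the right. Filled circles are the model of group means and open diamonds the same model with the mesothelium marker score of each array as a covariate. In CON the size of Dpp4 went from 1.14 to 0.14, while that of Pdgfra was 0.51 and 0.55.

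The test of the difference in rhythm passed for 0 of the 5 members, against 1.44% of genes. A genotype difference that depends on time was therefore not shown. Comparing genotypes at each time point, a member passed at CT7 only. There Cd34 was higher in MUT by 0.37 ± 0.10 (1.29-fold, adjusted p = 0.0382), the only member that passed, against 4.05% of genes called and 2.98% called higher. All 3 MUT arrays lay above all 3 CON arrays at CT7 for Dpp4, Pi16, Cd34 and Dcn, as for 15.2% of tested genes. Dpp4 differed by 0.76 ± 0.26 (1.69-fold, adjusted p = 0.0915), Pi16 by 0.38 ± 0.20 (adjusted p = 0.281), Dcn by 0.30 ± 0.10 (adjusted p = 0.0771) and Pdgfra by 0.15 ± 0.16 (adjusted p = 0.628). The call of Cd34 ended without any single array of CON or MUT at CT7 (adjusted p from 0.0136 to 0.18 over the 24 omissions). It also ended after the lowess correction of each array (0.29, adjusted p = 0.0986) and without the 3 arrays of narrow spread (adjusted p = 0.331). Dpp4 passed without MUT CT7 replicate 1 (1.04, adjusted p = 0.0342). With array weights Dpp4 (0.82) and Dcn (0.27) passed beside Cd34, and 17.6% of all genes were then called.

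At CT1, CT13 and CT19, 0 of the 5 members passed with limma, against 0.0451%, 0.322% and 2.74% of genes. At an unadjusted p under 0.05 there were 0, 0 and 1 members and 1791, 3073 and 3537 genes. Differences of MUT from CON ran from -0.15 (Pdgfra) to 0.17 (Dpp4) at CT1, from -0.32 (Pi16) to 0.25 (Dpp4) at CT13 and from -0.16 (Pdgfra) to 0.54 ± 0.26 (Dpp4, adjusted p = 0.213) at CT19. Without CON CT13 replicate 3, the array of highest Pi16, the CT13 difference of Pi16 was 0.01.

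**Figure D3:**
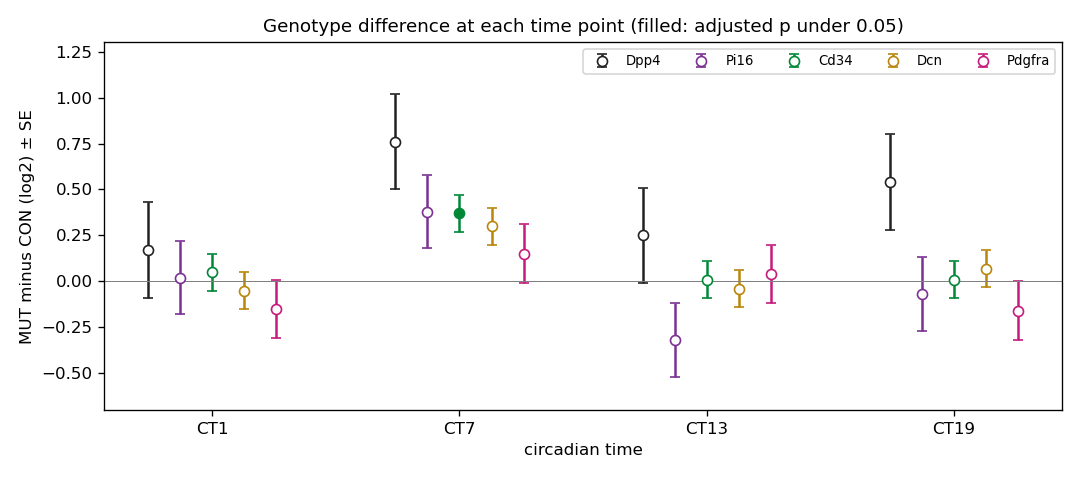
MUT minus CON in log2 units with its SE (y axis) at the 4 time points (x axis) for the 5 genes; a filled point marks an adjusted p under 0.05. All 5 differences lie above 0 at CT7, where Cd34 (0.37) is the filled point, and at the other times the points lie on both sides of 0.

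In the daily mean, Dpp4 was higher in MUT by 0.43 ± 0.13 (1.35-fold, adjusted p = 0.0225), 1 of the 5 members, against 21.7% of genes called and 12.3% called higher. Its difference was above 0 at each of the 4 time points. The call ended without CON CT13 replicate 1 (adjusted p = 0.0506) and after the lowess correction of each array (0.39, adjusted p = 0.0509). Without the 3 arrays of narrow spread the value was 0.43 (adjusted p = 0.104). The other daily means differed by 0.11 ± 0.05 for Cd34 (adjusted p = 0.112), 0.07 ± 0.05 for Dcn, 0.00 ± 0.10 for Pi16 and -0.03 ± 0.08 for Pdgfra. Cd34 passed without CON CT13 replicate 3 (0.13, adjusted p = 0.0444) and with array weights (0.13, adjusted p = 0.0359). Of all genes, 26.6% and 30.8% were called under these settings.

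The members did not all follow each other from mouse to mouse. As a description over the 24 arrays, which share the 8 groups, Pearson's r was 0.86 for Dpp4 and Cd34, 0.85 for Pi16 and Cd34, 0.82 for Dpp4 and Dcn and 0.81 for Dpp4 and Pi16. It was 0.79 for Pi16 and Dcn, 0.75 for Cd34 and Dcn and 0.75 for Dcn and Pdgfra. Pdgfra followed Pi16 (0.52), Dpp4 (0.48) and Cd34 (0.38) less closely. After the group means were subtracted, which leaves mouse-to-mouse deviations, r was 0.80 for Dpp4 and Pi16, 0.69 for Pi16 and Cd34 and 0.68 for Dpp4 and Cd34. It was 0.72 for Dcn and Pdgfra, 0.18 for Cd34 and Dcn and -0.22 for Cd34 and Pdgfra. Within groups, Dpp4, Pi16 and Cd34 thus varied together, and so did Dcn with Pdgfra. The r of -0.22 includes 1 array with large opposite deviations, MUT CT13 replicate 2. It read 11.62 for Cd34 beside 11.20 and 11.20, and 9.18 for Pdgfra beside 9.73 and 9.95. No r was computed without this array. Dcn stood between, with r of 0.60 to Dpp4 and 0.52 to Pi16.

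The 3 tested genes whose signals were most like each member over the 24 arrays, by Pearson's r, also differed between members. For Dpp4 they were Gpm6a, a membrane glycoprotein gene (r = 0.98), Daglb, a diacylglycerol lipase gene (0.96), and Pkhd1l1 (0.96). For Pi16 they were Ecm1, an extracellular matrix protein gene (0.92), Gfpt2, an enzyme gene of hexosamine synthesis (0.92), and Pcolce2, a procollagen processing enhancer gene (0.90). For Cd34 they were Igfbp6 (0.94), the podoplanin gene Pdpn (0.93) and the serine protease gene Prss23 (0.93). For Dcn they were Antxr1 (0.94), the metalloprotease inhibitor gene Timp2 (0.92) and the collagen-binding integrin gene Itga11 (0.90). For Pdgfra they were Smoc2 (0.82), Antxr1 (0.80) and Abca9 (0.80). None of the fixed lists holds any of these genes.

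Other genes of these cells moved less evenly. Over all genes 17.1% were called for a CON rhythm, and 12.3% were called higher in the MUT daily mean. Of 9 tested markers of the DPP4-positive interstitial progenitors, 3 were rhythmic in CON: Smpd3, which encodes a sphingomyelinase (0.69 ± 0.13, peak CT18.4), Sema3c, a secreted semaphorin gene (0.77 ± 0.16, CT19), and the transcription factor gene Creb5 (0.47 ± 0.10, CT15). The daily mean of 3 markers was higher in MUT and that of 1 lower, with Anxa3 at 0.40 ± 0.09 and Ly6c1 at 0.33 ± 0.09 as those of smallest p. Of 9 tested pan-stromal markers 2 were rhythmic in CON, the microfibril gene Mfap5 (0.82 ± 0.11, CT17.7) and the endosialin gene Cd248 (0.61 ± 0.09, CT18.7), and Col1a2 was at 0.25 ± 0.08 (adjusted p = 0.0779). In the daily mean 2 of them, Itgb1 (0.23 ± 0.05) and Mfap5 (0.21 ± 0.06), were higher in MUT. The median CON size was 0.44 in the interstitial list and 0.29 in the pan-stromal list, beside 0.18 over all genes.

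Of 8 markers of committed preadipocytes, the cells closer to adipocyte formation, 0 were rhythmic in CON with limma, against 17.1% of all genes. Their median size was 0.13, and Col15a1 (0.46 ± 0.14, adjusted p = 0.0742), Pparg (0.16 ± 0.07) and Dlk1 (0.14 ± 0.09) had the smallest p. Of 6 markers of CD142-positive stromal cells, 2 were rhythmic, Fmo2 (1.61 ± 0.25, CT15.6) and the matrix Gla protein gene Mgp (0.43 ± 0.11, CT17.3), and F3, which encodes CD142, was at 0.37 ± 0.15 (adjusted p = 0.194). No marker of either list differed in the daily mean by the limma test, against 21.7% of all genes called. Gdf10 (-0.17 ± 0.07) and Abcg1 (0.27 ± 0.12) had the smallest p there among CD142 markers.

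Among relatives and partners of the members, calls were counted against the same background, 17.1% of genes for a CON rhythm and 12.3% for a higher MUT daily mean. Of the small leucine-rich proteoglycans, the family of decorin, 3 of 7 were rhythmic in CON: Aspn (0.74 ± 0.15, CT16.7), Prelp (0.46 ± 0.11, CT14.3) and Ecm2 (0.65 ± 0.16, CT18.5). The daily mean of 4 of the 7 was higher in MUT, led by Aspn (0.35 ± 0.08) and Fmod (0.26 ± 0.07). Of 6 genes of PDGF ligands and receptors 1 was rhythmic, Pdgfc, a ligand of the PDGFRA receptor (0.33 ± 0.08, CT18.7), with Pdgfrb at 0.34 ± 0.11 and Pdgfa at 0.17 ± 0.07 (neither passed). Pdgfd (0.29 ± 0.07) and Pdgfc (0.12 ± 0.04) were higher and Pdgfrl (-0.10 ± 0.04) lower in the MUT daily mean. Of 6 genes of the DPP family and of DPP4 partners 1 was rhythmic, Cxcl12, a chemokine gene whose product DPP4 cleaves. It peaked at CT4.84 (0.61 ± 0.10), on the other side of the day from Dpp4 at CT18.2. At CT7 Cxcl12 was lower in MUT by 0.40 ± 0.10 (adjusted p = 0.0214, written -0.40 as MUT minus CON). Called higher in MUT at CT7 were 1 of the 7 proteoglycans, Aspn (0.70 ± 0.15, adjusted p = 0.0131), and 1 of the 6 PDGF genes. The latter was Pdgfc (0.34 ± 0.08, adjusted p = 0.0231). Over all genes 4.05% were called at CT7, and 2.98% were called higher. Podxl, the tested relative of Cd34, and the 3 tested CAP genes related to Pi16 gave 0 calls for a CON rhythm, with Podxl at 0.22 ± 0.11 and Glipr2 at 0.27 ± 0.10.

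Markers of mesothelium, the cell layer that covers the fat pad, moved with the members. Of 10 markers 8 were rhythmic in CON and 5 were higher in the MUT daily mean, against 17.1% and 12.3% of all genes. The keratin gene Krt8 (1.01 ± 0.17, CT17.3) and the uroplakin genes Upk1b (1.21 ± 0.25, CT18.2) and Upk3b (1.17 ± 0.24, CT18) had the smallest p in CON, and Upk1b (0.45 ± 0.12) and Lrrn4 (0.51 ± 0.16) in the daily mean. The summed signal of the 10 markers, as log2, ran from 11.96 to 12.04 in CON at CT7, from 12.19 to 12.67 at CT1, from 12.59 to 13.12 at CT13 and from 12.85 to 13.14 at CT19. In MUT it ran from 12.09 to 12.91 at CT7, from 12.61 to 12.86 at CT1, from 12.56 to 13.67 at CT13 and from 12.96 to 13.45 at CT19. CON at CT7 was lowest here as well.

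The mesothelium score of an array is the median deviation of the 10 markers from their means over all arrays. Over the 24 arrays its r was 0.96 with Dpp4, 0.92 with Cd34, 0.80 with Pi16, 0.73 with Dcn and 0.36 with Pdgfra. Within groups it was 0.90, 0.84, 0.72, 0.36 and -0.07 in the same order. The array of highest score, MUT CT13 replicate 2 (0.89), read 9.18 for Pdgfra beside 9.73 and 9.95 in its group. The r of Pdgfra without this array was not computed. For a score of the interstitial markers made likewise, r over the 24 arrays was 0.80, 0.77, 0.74, 0.53 and 0.35 in that order. For the small leucine-rich proteoglycans it was 0.66, 0.63, 0.70, 0.81 and 0.67. With the score as a covariate, 0 of the 5 members kept a CON rhythm with limma, while 1572 genes passed, 1272 of them among the 2650 called without it. The CON size was then 0.14 ± 0.14 for Dpp4 (adjusted p = 0.696), 0.44 ± 0.18 for Pi16 (adjusted p = 0.198), 0.28 ± 0.09 for Cd34 (adjusted p = 0.115), 0.29 ± 0.13 for Dcn (adjusted p = 0.245) and 0.55 ± 0.22 for Pdgfra (adjusted p = 0.179). The daily mean difference of Dpp4 was 0.07 (adjusted p = 0.57), the CT7 difference of Cd34 0.19 (adjusted p = 0.219), and the rise from CT7 to CT19 in CON passed for 0 members. The mesothelium score follows time of day itself, and the part of mesothelium in these results was not tested.

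**Figure D4:**
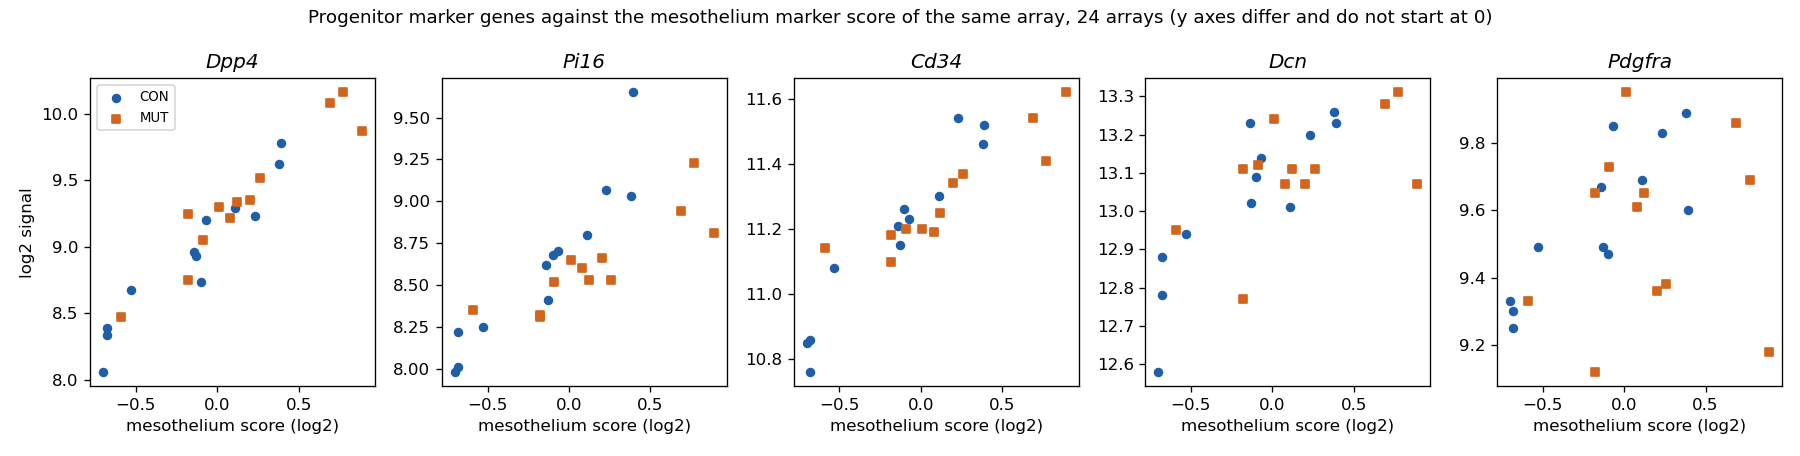
Log2 signal of each gene (y axis, separate scales) against the mesothelium marker score of the same array in log2 units (x axis), 1 point per array, CON in blue and MUT in orange. Dpp4 rises with the score over both genotypes (r = 0.96), and Pdgfra is scattered (r = 0.36). The point of highest score, MUT CT13 replicate 2 (0.89), lies at 9.18 for Pdgfra, and r without it was not computed.

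Markers of other cell types that could carry these genes were counted in the same way, against the same 17.1% and 12.3% of all genes. Of 9 endothelial markers 5 were rhythmic in CON, with peaks in the subjective day, among them Cldn5 (0.72, CT1.43), Kdr (0.48, CT1.12) and Cdh5 (0.31, CT3.48), and 1 was higher in the MUT daily mean. The r of the endothelial score with Cd34 over the 24 arrays was 0.23. Of 9 macrophage markers 5 were rhythmic in CON, among them Lyve1 (0.78, CT16), Csf1r (0.55, CT18.2) and C1qb (0.51, CT16.4), and 1 was higher in the MUT daily mean. The summed signal of the 9 macrophage markers, as log2, ran in CON from 12.41 to 12.83 at CT1, from 12.37 to 12.49 at CT7, from 12.67 to 13.09 at CT13 and from 12.69 to 12.99 at CT19. In MUT it ran from 12.58 to 12.69, from 12.41 to 12.53, from 12.78 to 13.23 and from 12.70 to 12.79 at the same times. Their score over the 24 arrays had an r of 0.75 with Pi16, 0.68 with Dcn, 0.67 with Cd34, 0.61 with Pdgfra and 0.57 with Dpp4. Their part in the results was not tested. The 3 tested T cell markers gave 0 calls in CON, with sizes from 0.06 to 0.16. In CON, 2 of 9 adipocyte markers were rhythmic, as were 1 of 7 markers of pericytes or smooth muscle, 0 of 9 brain markers and 0 of 3 markers of epididymis.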

How the data were processed

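The authors deposited log2 expression values per probe set, made with RMA and Affymetrix Expression Console per the submitters' processing notes; no source used here gives their versions, settings or genome build. RMA compresses low signals, and its shared scale hides changes common to all genes. Of 34390 probe sets, 23521 carry 1 symbol, 1814 several and 9055 none, by the platform annotation updated through Entrez identifiers (193 unmatched). The brightest probe set per gene was used, and genes whose mean signal fell below the 30th percentile (7.416) were not tested.

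Group means over all 24 arrays were fitted with limma 3.58.1 in R 4.3.3 (16 residual df). Rhythms were tested by a moderated F over 24-h cosine and sine contrasts, genotype and time differences by limma's two-sided moderated test, with Benjamini-Hochberg adjustment over 15526 genes and a threshold of 0.05. Errors are SE of that model unless SD is named. Sampling every 6 h rests each peak on the cosine's shape, and 3 arrays per group limit precision. Members and lists were chosen with earlier results of these data known. Named genes were all members, up to 3 genes per list by CON rhythm p and 2 by daily mean p, the 3 most correlated genes per member, Arntl and Syt10. Pdgfc in the daily mean, and relatives and partners at CT7, were named after their values were seen. In simulated data, 1.5-fold changes were recovered in 88% (CON rhythm), 89.5% (MUT rhythm), 62.5% (difference) and 93.5% (CT7) of 200 among 15526 genes, and 1.2-fold changes in 1.5%, 1%, 0% and 11.5%. The changed genes were drawn at random and given independent normal noise of their own spread. These shares are therefore not the power for any single member. Alternatives were quantile normalization, a lowess correction of each array's deviations over mean signal, no filter, all probe sets, title letters as a replicate block, array weights, arrays left out, a mesothelium covariate and an F test over time points. Figures used Python 3.11.15 and matplotlib 3.10.9.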

Additional observations from a re-analysis of the deposited data

Results flagged for a closer look

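The 24-h rhythm differed between MUT and CON, by the test of the difference itself, for 2 genes of the marker lists. That test passed for 0 of the 5 members and for 1.44% of all tested genes. Cldn5, an endothelial tight junction gene, had a vector difference of 0.93 (adjusted p = 0.00965), with a size of 0.72 and a peak at CT1.43 in CON and 0.53 and CT19.1 in MUT. Lep, the leptin gene of adipocytes, had a vector difference of 1.51 (adjusted p = 0.000679), with a size of 1.38 and a peak at CT16.5 in CON and 0.19 in MUT.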

How the results depend on the processing

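Of 1610 values of members recomputed under the alternatives, 1506 kept their direction and their side of the threshold, 37 lost a call, 13 gained one and 54 turned sign; the cause was not tested. The CT19 minus CT7 comparisons were added after seeing the data. With quantile normalization, 346 genes were called for the rhythm difference, 1953 for the daily mean, 11 at CT1 and 68 for MUT CT19 minus CT7. After the lowess correction of each array for its trend over signal level, 0 members and 1858 genes were called in the daily mean and 0 members at CT7. Without the filter, 13 genes were called at CT1, 29 at CT13 and 67 for MUT CT19 minus CT7, and with all probe sets 3 at CT1. Same-lettered arrays did not deviate together (mean r -0.01 over 84 pairs, 0.01 over 168 others), so letters were not taken as pairs. With the replicate block 3 genes were called at CT1 and 71 for MUT CT19 minus CT7, and Pdgfra lost its CON CT19 minus CT7 call.

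With array weights, genes called were 4194 (CON rhythm), 555 (MUT rhythm, 1 member), 737 (rhythm difference), 58 (CT1), 2727 (CT7, 3 members), 13 (CT13), 1642 (CT19), 2678 (CON CT19 minus CT7) and 1108 (MUT CT19 minus CT7, 1 member), with 2 members in the daily mean. Without the 3 arrays of narrow spread they were 1011 (CON rhythm), 296 (daily mean, 0 members), 49 (CT7, 0 members), 0 (CT13), 476 (CON CT19 minus CT7, 2 members) and 76 (MUT CT19 minus CT7). With the mesothelium covariate they were 1572 (CON rhythm, 0 members), 17 (MUT rhythm), 425 (rhythm difference), 231 (daily mean, 0 members), 297 (CT7, 0 members), 128 (CT19), 585 (CON CT19 minus CT7, 0 members) and 11 (MUT CT19 minus CT7).

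Leaving out each array in turn, members called ranged from 4 to 5 (CON rhythm), 0 to 0 (MUT rhythm, rhythm difference, CT1, CT13 and CT19), 0 to 2 (daily mean), 0 to 1 (CT7), 4 to 5 (CON CT19 minus CT7) and 0 to 1 (MUT CT19 minus CT7). Genes called ranged from 1843 to 2892 (CON rhythm), 26 to 141 (MUT rhythm), 119 to 371 (rhythm difference), 2146 to 4131 (daily mean), 0 to 18 (CT1), 191 to 732 (CT7), 4 to 196 (CT13), 36 to 623 (CT19), 886 to 1813 (CON CT19 minus CT7) and 19 to 258 (MUT CT19 minus CT7).

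Every value that turned sign had missed the threshold. At CT13, Cd34 turned to -0.02 (quantile), -0.04 (lowess), -0.03 (narrow arrays out) and -0.07 (covariate), and Pdgfra to -0.04, -0.04 and -0.02 under the first 3 of these. At CT19, Cd34 turned to -0.00 (quantile), -0.05 (lowess), -0.02 (array weights) and -0.11 (covariate), and Pi16 to 0.06 (array weights). At CT1, Cd34 turned to -0.01 (quantile) and -0.04 (covariate), and with the covariate Dpp4 to -0.10 and Pi16 to -0.14. In the daily mean, Pi16 turned to -0.01 (narrow arrays out) and -0.22 (covariate), and Cd34 to -0.01 (covariate). With the covariate, MUT CT19 minus CT7 was -0.03 for Cd34 and -0.06 for Pi16, and the MUT rhythm of these genes, 0.05 and 0.06, peaked in the opposite part of the day. Leaving out each array in turn, differences that turned sign ranged, in the daily mean, from -0.04 to 0.09 for Pi16 and from -0.07 to 0.02 for Pdgfra. At CT1 they ranged from -0.08 to 0.15 for Pi16, from -0.12 to 0.06 for Dcn and from -0.25 to 0.02 for Pdgfra. At CT13 they ranged from -0.51 to 0.01 for Pi16, from -0.13 to 0.10 for Cd34 and from -0.12 to 0.26 for Pdgfra, and at CT19 from -0.23 to 0.12 for Pi16 and from -0.06 to 0.06 for Cd34.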
